A study of Mus musculus with 6 samples.

Results

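The subject is a set of 8 genes best known from neurons, Calca, Cck, Nrn1, Grik2, Dlg2, Slc6a17, Kcnk1 and Trpc4, measured by RNA-seq in cultured mesenchymal cells of the mouse small intestine. They were picked by symbol because they differed between embryonic and adult cultures in these data. Their difference between the stages is therefore described below without a test, and nothing is concluded from it. All 8 were found among the 23329 genes named in the deposited tables, and all 8 were among the 13478 genes with enough counts to be tested. There were 6 libraries, 3 of them embryonic (E14.5, the embryonic day) and 3 adult, all of strain C57. No mutation or treatment separates the groups in the labels, and all cultures were grown to confluence in serum with the inhibitor Y27632 before RNA was taken. The adult gut had its villi scraped away and the embryonic gut was cut up, so tissue handling differed with stage. The epithelium was then shaken off in both, and no sort that would remove nerve, glia or vessel cells is named. In such bulk libraries, fewer cells of a type and less RNA per cell cannot be told apart.

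Neuropeptides such as CGRP (from Calca) and cholecystokinin (from Cck) are made as precursor proteins, cut and amidated in secretory vesicles, and released to act on G protein-coupled receptors. In the gut, CGRP is known from sensory and enteric nerves and cholecystokinin from endocrine cells of the epithelium and from the brain. At synapses, ionotropic receptors such as the kainate receptor subunit encoded by Grik2 open to glutamate, while scaffold proteins such as PSD-93, the product of Dlg2, hold receptors in place. Potassium and TRPC channels set membrane voltage and calcium entry, and are found in smooth muscle as well as in neurons.

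The start regions of the members are shown first, for those in which the letters TGACG occur. TGACG is the half-site of the cyclic AMP response element, a sequence through which cyclic AMP is known to act on neuropeptide genes. RefSeq start regions (GRCm38.p6, the assembly that UCSC calls mm10) were found for 7 of the 8 genes, at 10 start sites, and the 250 bases before each start were searched on both strands. TGACG or its reverse complement occurred before 3 of the 10 starts, and 17.8% of 32851 start regions of the same length hold it. The 3 starts belong to Calca, Cck and Slc6a17, all of which were lower in E14.5 cultures. Dlg2 was lower too and held no TGACG at its listed starts, and for Nrn1, also lower, no start region was found. The 3 regions are printed below with TGACG, and TGANTCA (the AP-1 site) where present, in capitals on either strand. The Calca region is chr7:114636358-114636607 on the minus strand, the Cck region chr9:121495695-121495944 on the minus strand, and the Slc6a17 region chr3:107518019-107518268 on the minus strand.
Calca: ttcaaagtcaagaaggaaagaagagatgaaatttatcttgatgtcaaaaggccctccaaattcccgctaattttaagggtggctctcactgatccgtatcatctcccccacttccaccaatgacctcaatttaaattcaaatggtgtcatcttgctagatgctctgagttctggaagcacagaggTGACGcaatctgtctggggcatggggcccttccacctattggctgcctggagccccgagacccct
Cck: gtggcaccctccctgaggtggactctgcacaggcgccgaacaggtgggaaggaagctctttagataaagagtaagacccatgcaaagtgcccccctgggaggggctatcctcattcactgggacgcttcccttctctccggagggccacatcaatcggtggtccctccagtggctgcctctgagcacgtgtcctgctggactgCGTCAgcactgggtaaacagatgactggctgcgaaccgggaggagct
Slc6a17: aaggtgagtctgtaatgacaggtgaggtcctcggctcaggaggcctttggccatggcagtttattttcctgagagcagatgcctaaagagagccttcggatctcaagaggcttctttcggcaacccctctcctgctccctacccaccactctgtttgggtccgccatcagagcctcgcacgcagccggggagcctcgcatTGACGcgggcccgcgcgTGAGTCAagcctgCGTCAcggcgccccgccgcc

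The leftmost base of the match lay 65 bases before the start in Calca and 47 in Cck. In Slc6a17 there were 2 matches, at 50 and 20 bases, on either side of a TGANTCA match at 33 bases. TGANTCA occurred before both listed starts of Slc6a17 and before none of the other 8, against 6.75% of all start regions. The full element TGACGTCA, which contains the half-site, occurred before 0 of the 10 starts and in 1.55% of all start regions. None of the listed starts of Grik2, Dlg2, Kcnk1 or Trpc4 held TGACG in this window. The windows searched for Calca, Grik2, Dlg2, Kcnk1 and Trpc4 lie inside the gene spans given below. The bases just before the outer ends of those spans were not searched. The matches are a description of the letters only.

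Levels below are CPM, edgeR's depth-scaled counts, on library sizes scaled by the trimmed mean of M-values (TMM). Fold changes are E14.5 over adult, fitted by edgeR over all tested genes. Gene totals ran from 18850224 to 32672370 counts, and a floor of 3 counts stood for 0.0927 to 0.149 CPM, which covers counting error only.

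Both neuropeptide precursor genes were found at low level in the adult cultures and were lower in the embryonic ones, where Calca was below the floor and Cck above it. Calca (chr7:114625981-114636910) encodes calcitonin and, through alternative splicing, the vasodilator peptide CGRP. It measured 0.0625, 0.0310 and 0.0309 CPM in embryonic replicates 1, 2 and 3. The gene reached 2.04, 6.01 and 4.71 CPM in adult replicates 1, 2 and 3. The embryonic values stand for 2, 1 and 1 counts, so all 3 lay below the floor, and every adult library lay above them. Over all libraries there were 4 embryonic and 309 adult counts, a 99.5-fold ratio after scaling, with a 95% counting interval (exact binomial, counting error only) of 38.5 to 367. The fitted log2 fold change was -6.54 (SE 0.66). Counts per gene do not separate the calcitonin and CGRP messages, and how reads shared with the related gene Calcb were assigned is not given in the labels.

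Cck (chr9:121489824-121495694), the cholecystokinin gene, measured 0.844, 0.279 and 0.247 CPM in embryonic replicates 1 to 3 and 6.51, 7.996 and 7.63 CPM in adult replicates 1 to 3. The adult cultures were close to one another, whereas E14.5 replicate 1 stood above the other embryonic cultures. Groups did not overlap. The log2 fold change of Cck was -4.0 (SE 0.55), and it was -4.79 without E14.5 replicate 1, the embryonic library in which the gene was highest, a change by more than 1.5 times in the fold.

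Nrn1 (chr13:36725622-36734477) encodes neuritin, a membrane-anchored protein known for promoting neurite growth. It was read at 5, 4 and 3 counts in the embryonic libraries, or 0.156, 0.124 and 0.0927 CPM. In adult replicates 1, 2 and 3 it measured 6.21, 35.4 and 8.23 CPM. Adult replicate 2 thus stood well above the other adult cultures, yet the lowest adult culture was far above all embryonic ones. The log2 fold change was -7.01 (SE 0.93). It was -5.82 without adult replicate 2, which moves the fold by over 1.5 times and places it behind Calca, at -6.22 in the same fit.

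The synaptic genes Grik2 and Dlg2 went in opposite directions. Grik2 (chr10:49093680-49790161), the kainate-type glutamate receptor subunit GluK2, measured 8.13, 3.79 and 4.91 CPM in embryonic replicates 1, 2 and 3. In the adult libraries it had 4, 5 and 4 counts, or 0.151, 0.248 and 0.141 CPM. Its log2 fold change was 4.95 (SE 0.50), with the lowest embryonic culture well above the highest adult one. Dlg2 (chr7:90476188-92449246), the scaffold gene, measured 1.63, 3.20 and 2.35 CPM in the embryonic and 21.05, 27.6 and 21.2 CPM in the adult cultures, in replicate order. Here all adult cultures were higher, at a log2 fold change of -3.28 (SE 0.30). The gene spans 1973 kb of chromosome 7, and its counts do not say which of its starts was used.

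Slc6a17 (chr3:107467548-107518018), which encodes a vesicular transporter of neutral amino acids known from synaptic vesicles, varied least among the embryonic cultures. It measured 2.94, 2.85 and 2.47 CPM in embryonic replicates 1, 2 and 3 and 19.9, 14.4 and 20.6 CPM in adult replicates 1, 2 and 3. Every adult culture was higher, and the log2 fold change was -2.73 (SE 0.22), the smallest in size of the 8.

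Both channel genes were higher in the embryonic cultures. Kcnk1 (chr8:125993655-126030685) encodes the potassium channel TWIK-1, which carries background potassium current. It measured 20.8, 5.43 and 13.7 CPM in embryonic replicates 1, 2 and 3 and 0.227, 0.695 and 0.563 CPM in adult replicates 1, 2 and 3. The embryonic cultures differed among themselves, with replicate 2 lowest, but did not overlap with the adult ones (log2 fold change 4.75, SE 0.68). Trpc4 (chr3:54155584-54318471) encodes a calcium-permeable cation channel that is known to carry muscarinic current in intestinal smooth muscle. It measured 15.3, 18.99 and 14.7 CPM in the embryonic and 1.36, 2.63 and 1.72 CPM in the adult cultures, in replicate order. The embryonic cultures were here close to one another and all above the adult ones, and the log2 fold change was 3.10 (SE 0.31).

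**Figure D1:**
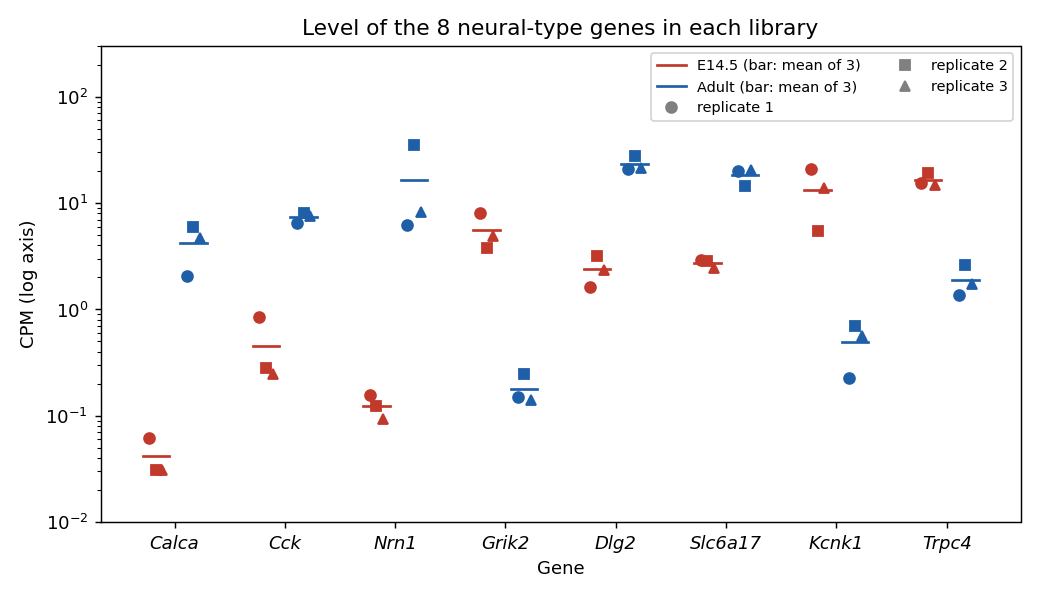
CPM of each of the 8 genes in each library on a log axis, with E14.5 cultures in red, adult cultures in blue, one marker shape per replicate number and a bar at the mean of 3. Calca, Cck, Nrn1, Dlg2 and Slc6a17 lie higher in all adult cultures, and Grik2, Kcnk1 and Trpc4 in all E14.5 cultures.

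Of the 8, 5 members were lower and 3 higher in E14.5 cultures, and none overlapped between the groups. By edgeR's quasi-likelihood test at an adjusted p of 0.05, 1.08% of all tested genes were called (0.838% lower and 0.245% higher in E14.5). Groups did not overlap for 24.1% of all tested genes, 12.1% with E14.5 above and 12% with E14.5 below adult. All 8 members were among the called genes, which follows from how they were chosen. These calls depended on single libraries: 0 of the 8 were called without E14.5 replicate 1, without adult replicate 3 or with the title prefix as a replicate block. Over the whole table the 146 calls became 3, 3 and 2 in those fits, and 471 without E14.5 replicate 2.

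Per kilobase of exon (GENCODE M21 basic gene models), the order of the 8 levels differed between the stages. In E14.5 cultures Kcnk1 and Trpc4 led with 5.96 ± 3.45 and 4.70 ± 0.669 CPM per kb (SD, n = 3), and these lay within the spread of each other. Grik2 (0.541 ± 0.217 CPM per kb), Slc6a17 (0.436 ± 0.0394) and Cck (0.393 ± 0.289) followed and did not differ from one another beyond their spread. Dlg2 had 0.269 ± 0.0884 CPM per kb, within the spread of Cck, while Nrn1 (0.0580 ± 0.0148) and Calca (0.0253 ± 0.0111) were lowest. In adult cultures Nrn1 (7.74 ± 7.59 CPM per kb) and Cck (6.35 ± 0.665) were highest and could not be ordered against each other. Slc6a17 (2.89 ± 0.539 CPM per kb), Dlg2 (2.62 ± 0.422) and Calca (2.60 ± 1.23) formed a middle group within one another's spread. Trpc4 (0.549 ± 0.188 CPM per kb), Kcnk1 (0.222 ± 0.108) and Grik2 (0.0174 ± 0.00572) came last, in that order.

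Relatives of the members that had no part in choosing them were then examined, in 11 lists of peptide, synapse, transporter and channel genes. Of 142 such genes with a row, 61 had enough counts to be tested. None of the 61 passed edgeR (adjusted p 0.05) or limma-voom, 18 had an unadjusted edgeR p under 0.05 (6 higher and 12 lower in E14.5), and DESeq2 called 12 (4 higher, 8 lower). Over all tested genes, 17.9% had an unadjusted edgeR p under 0.05 (8.64% higher, 9.26% lower) and DESeq2 called 10.6% (5.14% higher, 5.47% lower), the shares against which these and the later counts of lists are to be read. Their median log2 fold change was 0.05, beside 0.01 over all tested genes, with 32 positive and 29 negative values. Those that DESeq2 called included, named here after their values were seen, Slc6a15, Syt1 and Kcnk13 on the higher side and Pam, Shank3, Nrxn2, Sv2a, Slc6a6, Adm, Neto2 and Trpc6 on the lower side.

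**Figure D2:**
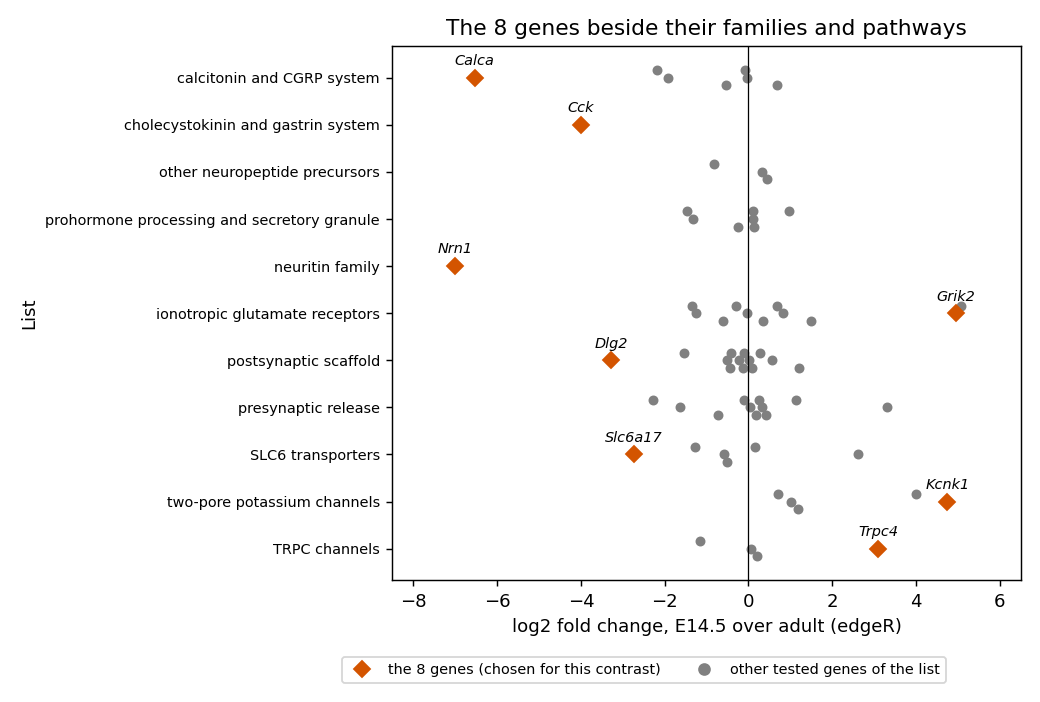
Fitted log2 fold change, E14.5 over adult, for tested genes of each list (rows). Orange diamonds are the 8 genes, which were chosen for this contrast, and grey circles are the other tested genes of the list, the lowest of which is Sv2a at -2.29.

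Genes that receive the 2 peptides were of 2 kinds. For cholecystokinin, none of the other 3 listed genes was testable: the receptor genes Cckar and Cckbr had at most 2 and 4 counts in any library. For CGRP, Calcrl and Ramp1 encode the receptor and the accessory protein that gives it CGRP selectivity, and are named here after their values were seen. Ramp1 was present in both groups, with 15.6, 3.07 and 8.19 CPM in embryonic replicates 1, 2 and 3 and 14.3, 9.88 and 14.7 CPM in adult replicates 1, 2 and 3. Calcrl measured 1.69, 2.70 and 4.45 CPM in the embryonic and 1.51, 24.4 and 7.42 CPM in the adult cultures. Both overlapped between the groups. Of 6 tested genes of the calcitonin and CGRP list other than Calca, 1 had an unadjusted p under 0.05 and 5 had a negative value. The most abundant were Crcp (log2 fold change -0.03, SE 0.11, adjusted p = 0.941, edgeR) and Adm, the adrenomedullin gene (-2.19, SE 0.77, adjusted p = 0.213, edgeR). Adm, at 80.7 CPM in adult replicate 2 against 6.63 to 22.9 CPM elsewhere, was highest where endothelial markers were highest.

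Enzymes that finish both peptides were abundant in both groups. Cpe, carboxypeptidase E, measured 2018 ± 221 CPM in embryonic and 1833 ± 385 CPM in adult cultures (log2 fold change 0.14, SE 0.20). Pam, the amidating enzyme on which both CGRP and cholecystokinin depend, measured 138, 124 and 127 CPM in embryonic replicates 1, 2 and 3. It measured 198, 619 and 265 CPM in adult replicates 1, 2 and 3, without overlap (log2 fold change -1.48, SE 0.42, adjusted p = 0.150, edgeR). The prohormone convertase genes Pcsk1 and Pcsk2, which cut precursors in regulated secretory cells and are named after their values were seen, had at most 2 counts in any library. Of 7 tested processing genes, 1 had an unadjusted p under 0.05. Among 21 other neuropeptide precursor genes, 3 were testable, 6 had no count in any library, and none had an unadjusted p under 0.05. The most abundant were Nppb (natriuretic peptide B, 15.6 ± 8.06 CPM in embryonic and 27.3 ± 13.8 CPM in adult cultures) and Gal (galanin, 0.642 ± 0.117 and 0.465 ± 0.410 CPM).

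Among glutamate receptor genes other than Grik2, 10 of 19 were testable, 4 had an unadjusted p under 0.05 and the median log2 fold change was 0.16. Gria3, an AMPA receptor subunit, was the most abundant, with 98.1 ± 19.9 CPM in embryonic and 99.9 ± 10.8 CPM in adult cultures (log2 fold change -0.03, SE 0.18). Grik5, a kainate subunit that forms channels together with GluK subunits of the Grik2 type, measured 10.9, 8.25 and 13.2 CPM in the embryonic and 7.95, 6.90 and 5.34 CPM in the adult cultures (log2 fold change 0.68, SE 0.26, adjusted p = 0.252, edgeR). Grik5 was thus read in every adult library. Whether the difference between Grik2 and Grik5 in their stage effect exceeds the error was not tested. The auxiliary subunit gene Neto2, by contrast, was lower in all E14.5 cultures, at 4.66, 3.23 and 2.35 against 7.31, 10.7 and 8.05 CPM (log2 fold change -1.35, SE 0.33, adjusted p = 0.121, edgeR).

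Genes for the scaffold to which Dlg2 belongs and for transmitter release were read next. Of 12 tested scaffold genes, 2 had an unadjusted p under 0.05, and the median was -0.11. The Dlg2 paralog Dlg1 (SAP97), the most abundant, measured 178 ± 44.4 and 207 ± 22.6 CPM in embryonic and adult cultures (log2 fold change -0.22, SE 0.20). Dlgap4 measured 194 ± 40.7 and 159 ± 32.9 CPM (0.28, SE 0.22). Of 11 tested genes for transmitter release, 5 had an unadjusted p under 0.05 (2 higher, 3 lower), beside 17.9% of all tested genes, and DESeq2 called 3 (Syt1 higher, Nrxn2 and Sv2a lower). Syt1, the calcium sensor of release, had a log2 fold change of 3.32 (SE 0.71, adjusted p = 0.097, edgeR). Cplx2 (complexin 2) measured 30.0 ± 4.95 and 25.3 ± 10.7 CPM and Vamp2 (synaptobrevin 2) 25.7 ± 2.45 and 27.5 ± 2.25 CPM in embryonic and adult cultures. Sv2a, a synaptic vesicle protein gene, did not pass with all libraries (log2 fold change -2.29, SE 0.48, adjusted p = 0.096, edgeR) and was the only one of the 11 lists' genes called when a single library, E14.5 replicate 2, was left out (adjusted p = 0.047, edgeR).

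Close paralogs of the transporter and channel genes were measured as well. Among 5 tested SLC6 transporters besides Slc6a17, 3 had an unadjusted p under 0.05. The taurine transporter gene Slc6a6 (log2 fold change -0.58, SE 0.14, adjusted p = 0.109, edgeR) and the creatine transporter gene Slc6a8 (-0.51, SE 0.17, adjusted p = 0.188, edgeR) were lower in all E14.5 cultures by less than 2-fold. Slc6a15, a neutral amino acid transporter gene, was higher in all E14.5 cultures, at 1.03, 0.652 and 0.371 against 0.0757, 0.149 and 0.105 CPM (log2 fold change 2.62, SE 0.58, adjusted p = 0.100, edgeR). Of 4 tested channel genes of the same KCNK family besides Kcnk1, all had a positive value, and 1 had an unadjusted p under 0.05. Kcnk6 and Kcnk2 overlapped between the groups, with log2 fold changes of 1.19 (SE 0.60) and 0.70 (SE 0.47). Kcnk13 measured 0.469, 0.962 and 7.08 CPM in embryonic replicates 1, 2 and 3, and was highest in the library with the most macrophage marker RNA, whose part in the value was not tested. Among TRPC channels, Trpc1 was level between the groups (10.5 ± 1.29 and 10.05 ± 0.973 CPM in embryonic and adult cultures). Trpc6 lay the other way from Trpc4, with 7.66, 4.41 and 7.57 CPM in embryonic and 13.5, 19.8 and 10.3 CPM in adult cultures (log2 fold change -1.15, SE 0.34, adjusted p = 0.154, edgeR).

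The neural-type name was checked against 20 neuronal and 12 glial or Schwann cell markers in each library. Several neuron-defining genes were at or near the floor. Chat and Rbfox3 had 0 counts in 5 of 6 libraries and 1 count in the other, Snap25 had at most 2 counts, and Elavl3 at most 7. Elavl4 measured 1.13, 0.372 and 0.0927 CPM in the embryonic replicates and at most 0.105 CPM in adults. The sum of the neuronal list was 211 to 300 CPM in embryonic and 236 to 313 CPM in adult libraries. Most of it came from Uchl1 and Tubb3, and the other 18 genes summed to 7.94 to 24.7 CPM in embryonic and 3.90 to 11.1 CPM in adults. Uchl1 stood at 209 ± 52.9 CPM in the embryonic group and 157 ± 63.0 CPM in the adult group.

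Among the embryonic cultures, only some had reads of the lineage genes Sox10 and Cdh19. Sox10, the defining factor of the enteric glial and Schwann lineage, measured 3.91, 0 and 2.41 CPM in embryonic replicates 1, 2 and 3 and at most 0.0497 CPM in adults. Cdh19, a cadherin of Schwann cell precursors, measured 3.00, 0 and 1.45 CPM in the embryonic replicates and 0 in all adult libraries. Foxd3 was likewise at 0 in embryonic replicate 2. Other genes of the list were read in every library. Fabp7 measured 2.66, 1.95 and 3.83 CPM in embryonic and 2.31, 4.17 and 2.25 CPM in adult replicates 1 to 3. Pmp2 measured 2.63, 2.33 and 0.433 CPM and 2.35, 1.59 and 2.29 CPM in the same order. The glial list summed to 31.5 to 60.1 CPM in embryonic and 29.5 to 38.9 CPM in adults, with Mbp the most abundant (28.8 ± 22.7 and 26.0 ± 6.34 CPM).

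Of the 13 neuronal and glial markers with enough counts, 0 passed edgeR or limma-voom, 4 had an unadjusted edgeR p under 0.05, and DESeq2 called 2 (Syt1 higher and Tubb3 lower), beside 17.9% and 10.6% of all tested genes. Their median log2 fold change was 0.42. Without E14.5 replicate 2, in which Sox10 and Cdh19 had 0 counts, 3 were called higher by edgeR, among them Sox10 (adjusted p = 0.0217) and Cdh19 (adjusted p = 0.0499). That fit drops the embryonic library at 0 and keeps both genes only through the libraries where they were high, so nothing is concluded from these calls. Without adult replicate 1, 2 or 3, edgeR called neither. The adjusted p was then 0.380, 0.329 and 0.465 for Sox10 and 0.398, 0.363 and 0.492 for Cdh19 (edgeR). Sox10 and Cdh19 did not have enough counts to be tested with all libraries.

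Among the embryonic cultures, Grik2 and Kcnk1 were ordered like Sox10, highest in replicate 1 and lowest in replicate 2, while Trpc4 was highest in replicate 2. Some abundant muscle and mesenchymal markers had this order too, such as Myh11 (3492, 1263 and 2835 CPM), Actg2 (7551, 2215 and 4719) and Col1a1 (11534, 5744 and 11209). Others did not: Acta2 was lowest in replicate 3, and Mbp and Uchl1 were highest in replicate 2. The share of all tested genes with the order of Sox10 was not counted. Over 3 libraries this order is a description, and the part of Schwann cell RNA in it was not tested. With E14.5 replicates 1 and 3 left out, the log2 fold changes of Grik2, Kcnk1 and Trpc4 were 4.40, 3.47 and 3.33, in a fit chosen after seeing the data. The lone embryonic library is there assumed to vary like the adult ones, and the value of Kcnk1 moved by over 1.5 times in the fold.

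**Figure D3:**
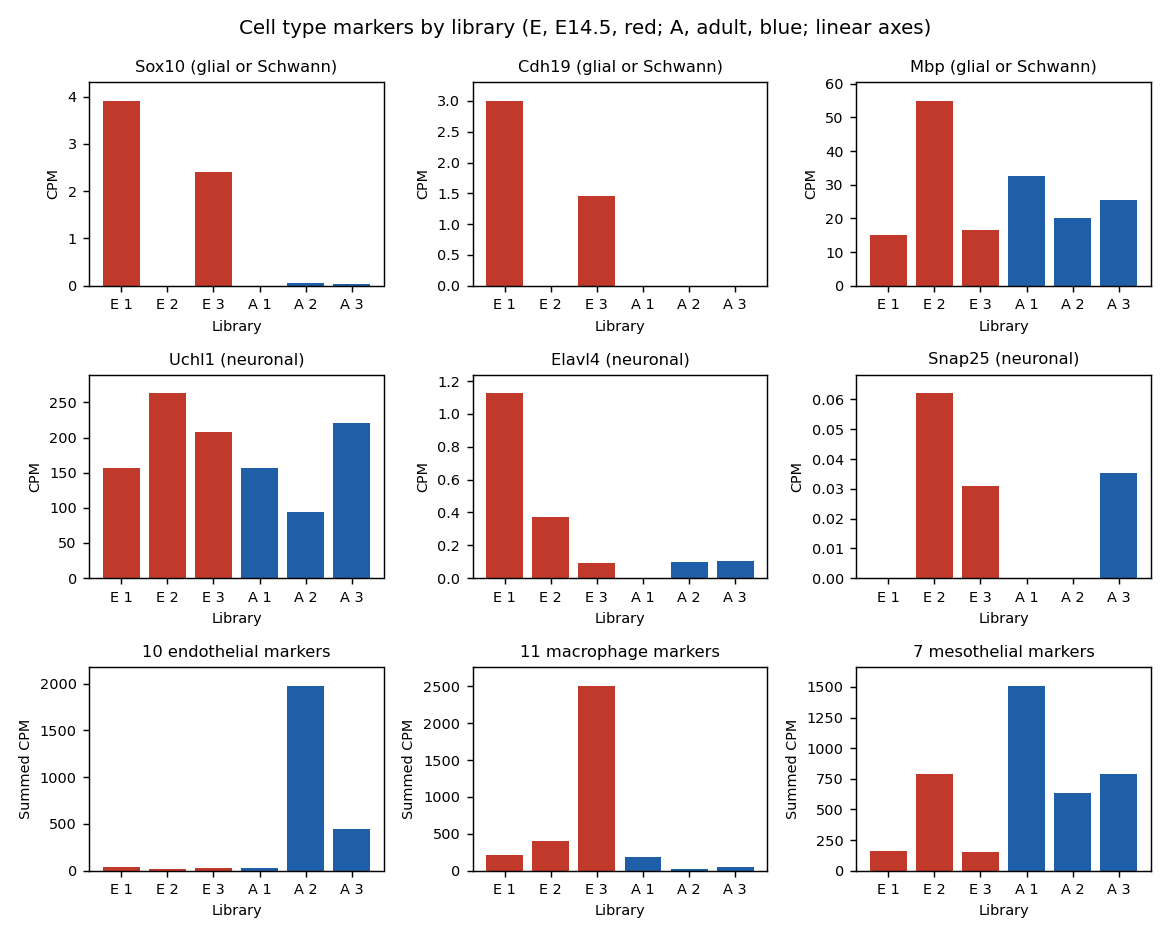
CPM of 3 glial or Schwann cell markers and 3 neuronal markers, and summed CPM of endothelial, macrophage and mesothelial marker lists, in each library on linear axes (E, E14.5, red; A, adult, blue). Sox10 and Cdh19 are highest in E14.5 replicates 1 and 3, Mbp and Uchl1 in E14.5 replicate 2, and the endothelial sum in adult replicate 2.

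Markers of other cell types differed between libraries as well. Endothelial markers (10 of 10 read) summed to 17.3 to 38.2 CPM in embryonic and to 29.0, 1978 and 441 CPM in adult replicates 1, 2 and 3. Macrophage and leukocyte markers (11 of 11) summed to 207, 400 and 2508 CPM in embryonic and 23.4 to 190 CPM in adult libraries. Mesothelial markers (7 of 7) summed to 150 to 785 CPM in embryonic and 637 to 1510 CPM in adults. The most abundant markers of these lists were Emcn, Lyz2 and Upk3b. None of the genes of these 3 lists passed edgeR or limma-voom, although 7, 10 and 2 had an unadjusted p under 0.05 and DESeq2 called 6, 9 and 2, beside 17.9% and 10.6% of all tested genes. Epithelial markers summed to 10.1 to 66.8 CPM over all libraries, most of it from Krt20, with Epcam at 0.0618 to 0.141 CPM. Enteroendocrine markers summed to 0.447 to 11.2 CPM, with Tph1 the most abundant in the list. Chga, which marks endocrine cells, was at most 0.813 CPM in embryonic and 0 to 0.0379 CPM in adult libraries, where Cck was higher. Chgb of the same list was read in every library, at 0.189, 0.298 and 0.598 CPM in adult replicates 1, 2 and 3. The cell source of Cck was not tested. Markers of interstitial cells of Cajal summed to 1.80 to 21.1 CPM, led by Ano1. Of the 7 genes tested from these 3 lists, 0 passed edgeR or limma-voom, 2 had an unadjusted p under 0.05 and DESeq2 called 2.

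The labelled cell type was checked against its own markers. Mesenchymal markers such as Col1a1 (9496 ± 3253 and 5279 ± 1363 CPM in embryonic and adult cultures) were abundant in every library, as were smooth muscle markers such as Acta2 (12918 ± 2828 and 12812 ± 3594 CPM). Of the 9 mesenchymal markers, Pdgfra was lower in E14.5 (log2 fold change -3.72, SE 0.50, adjusted p = 0.036, edgeR), with 2.47, 3.85 and 4.45 against 29.5, 81.0 and 31.7 CPM. Its call was lost without E14.5 replicate 1, E14.5 replicate 3, adult replicate 1 or adult replicate 3, with limma-voom (adjusted p = 0.081) and with the replicate block (adjusted p = 0.094, edgeR), and its log2 fold change was -3.09 without adult replicate 2. None of the other 8 mesenchymal markers passed edgeR or limma-voom, 4 of them had an unadjusted p under 0.05 and DESeq2 called 3. Of 8 smooth muscle markers, 0 passed edgeR or limma-voom, 2 had an unadjusted p under 0.05 and DESeq2 called 2.

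Among the adult cultures, 7 of the 8 members, Slc6a17 being the exception, were highest in replicate 2, where endothelial markers were highest. The lead was small for Grik2 (5 counts against 4 and 4) and Cck (7.996 against 6.51 and 7.63 CPM). Kcnk1 (14 counts against 6 and 16) led only after scaling for depth. The share of all tested genes highest in that library was not counted, and the part of endothelial RNA in this order was not tested. In adult replicate 1 the endothelial sum was 29.0 CPM, inside the embryonic range of 17.3 to 38.2 CPM. Cdh5 and Tie1 had 24 and 12 counts there. In embryonic replicates 1, 2 and 3, Cdh5 had 1, 5 and 5 counts and Tie1 had 0, 0 and 2. Of the 10 listed endothelial markers, 7 were higher in every adult library than in every embryonic one. Emcn, Lyve1 and Vwf overlapped. Vwf measured 0.416 CPM in adult replicate 1 against 1.91, 1.52 and 13.6 CPM in embryonic replicates 1, 2 and 3. With adult replicates 2 and 3 left out, the log2 fold changes were -5.60 for Nrn1, -5.50 for Calca, -3.82 for Cck and 5.84 for Kcnk1, in a fit chosen after seeing the data in which the lone adult library is assumed to vary like the embryonic ones. Those of Nrn1, Calca and Kcnk1 moved by over 1.5 times in the fold.

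The nearest tested gene on each side of a member was used to see whether the surrounding chromosome moved with it. Of 16 neighbours, 0 passed edgeR or limma-voom, 3 had an unadjusted p under 0.05, and DESeq2 called 2. Their median log2 fold change was -0.12, with 5 positive and 11 negative values. Tmem126b ends 0.192 kb before Dlg2 in the RefSeq models and was level between the groups, at 14.4 ± 3.15 and 14.9 ± 1.34 CPM (log2 fold change -0.05, SE 0.20). Trak1, 14.9 kb before Cck, had a log2 fold change of -0.20 (SE 0.11). Calca lies between Cyp2r1 (-0.31, SE 0.39) and Insc (-0.81, SE 0.71).

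Slc6a17 was the member with neighbours on both sides in its own direction and without overlap between the groups. Kcnc4, a voltage-gated potassium channel gene 7.26 kb away, measured 0.125, 0.310 and 0.0309 CPM in embryonic and 2.31, 11.6 and 1.48 CPM in adult cultures (log2 fold change -5.00, SE 1.15, adjusted p = 0.107, edgeR). Ahcyl1, 145 kb away on the other side, measured 254 ± 38.6 and 443 ± 49.6 CPM in embryonic and adult cultures (-0.80, SE 0.16, adjusted p = 0.084, edgeR). With edgeR, Ahcyl1 was called only in the fit without E14.5 replicate 2 (adjusted p = 0.041, edgeR) among the 6 fits that leave out 1 library. Kcnc4 (adjusted p = 5.69e-05, DESeq2) and Ahcyl1 (adjusted p = 5.54e-04, DESeq2) were the 2 neighbours that DESeq2 called. Ly86, 611 kb from Nrn1, went the opposite way to Nrn1 (5.91, SE 1.5, adjusted p = 0.126, edgeR). At 50.5 CPM in E14.5 replicate 3 against 0.0497 to 4.53 CPM elsewhere, it was highest in the library with the most macrophage marker RNA.

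The remaining neighbours were Sec22c (0.15), Fars2 (-0.04), Hace1 (-0.21), Ascc3 (0.07), Ccdc90b (-0.05), Ntpcr (0.56), Irf2bp2 (-0.19), Ufm1 (0.08) and Postn (-0.62), with log2 fold changes in parentheses, and each overlapped between the groups. Postn, which encodes the matrix protein periostin 40.8 kb from Trpc4, measured 1126, 90.9 and 1181 CPM in embryonic replicates 1, 2 and 3, so it was lowest where Trpc4 was highest.

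**Figure D4:**
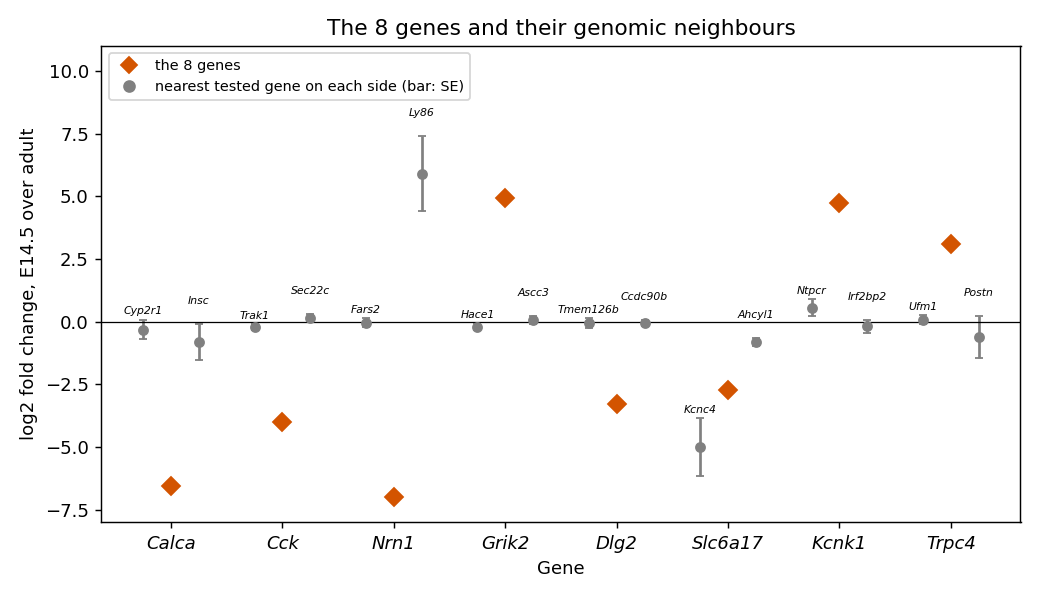
Fitted log2 fold change, E14.5 over adult, of the 8 genes (orange diamonds, chosen for this contrast) and of the nearest tested gene before and after each on the chromosome (grey circles, bars 1 SE). Most neighbours lie near 0, with Kcnc4 at -5.00 and Ly86 at 5.91 the farthest from it.

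The genes whose levels followed each member most closely over the 6 libraries were ranked by Pearson's r of log2 CPM, as a description. The 6 libraries fall into 2 separate groups, so each coefficient includes the difference between the stages. The 2 nearest were Arhgap31 (r = 0.996) and Angpt2 (0.994) for Calca, Entpd5 (0.997) and Myl4 (0.995) for Cck, and Hp (0.998) and Carns1 (0.996) for Nrn1. For Dlg2 they were Clcf1 (0.999) and Serpind1 (0.998), and for Slc6a17 Gpr56 (0.999) and Pnp2 (0.996). For the embryonic genes they were Dip2b and Slc38a1 (both 0.995) for Grik2, Ttll5 and Rangrf (both 0.993) for Kcnk1, and Gpr98 (0.993) and Atic (0.988) for Trpc4. Hp, the haptoglobin gene, was like Nrn1 highest in adult replicate 2, with 2.31, 10.7 and 2.14 CPM in adult replicates 1, 2 and 3, and is listed at 0 counts in every E14.5 library. Angpt2, which encodes an angiopoietin, measured 17.1, 53.4 and 41.8 CPM in the adult replicates and 0.931 to 1.39 CPM in E14.5, in the same order among adults as Calca.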

How the data were processed

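Poly(A) RNA from 6 cultures was sequenced in stranded libraries, as single-end reads, per the labels. Each library has 1 table of raw read counts by gene symbol as deposited by the authors, from a STAR alignment to mm10 per the submitters' processing notes. For the STAR version, the annotation and the treatment of shared reads, nothing is given in the sources used here. Table names carry the letters PBS, unexplained in the labels. Counts of the reverse strand were analysed, since those of the forward strand were 1.33% to 1.69% of stranded gene counts. Unmapped, multimapping and unassigned reads (17.4% to 19.8% of counted reads) were left out. Depth is given with the results and limits precision for genes with few counts.

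Replicates were numbered in accession order. The labels do not say that cultures came from separate animals, so p-values measure the spread between these cultures. The 13478 genes kept by filterByExpr were scaled by TMM and tested with edgeR 4.0.16 (quasi-likelihood, robust) in R 4.3.3, with Benjamini-Hochberg adjustment over all of them and a threshold of 0.05. The SE is the log2 fold change divided by the square root of F, which is approximate. DESeq2 1.42.0, limma-voom (limma 3.58.1), other scalings and filters, a block and left-out libraries were alternatives. The steps were tested on simulated data.

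The members and lists were chosen with earlier results of these data known. Named genes are the members, up to 3 called genes per direction and the 2 most abundant uncalled genes of each family list, the most abundant and any called gene of each marker list, the 2 genes most correlated with each member (unnamed gene models left out) and the tested neighbours. Gene positions are from RefSeq (GRCm38.p6). Some genes of the lists are counted in the totals but not reported here by name.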

Additional observations from a re-analysis of the deposited data

How the results depend on the processing

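The log2 fold changes of the 8 members kept their sign under all alternatives tried, which groups that do not overlap make nearly certain. Over 18 alternatives they ran from -6.91 to -5.50 for Calca, -4.79 to -3.65 for Cck, -7.40 to -5.60 for Nrn1, -3.55 to -2.85 for Dlg2 and -2.88 to -2.64 for Slc6a17. They ran from 4.40 to 5.30 for Grik2, 3.47 to 5.84 for Kcnk1 and 2.91 to 3.57 for Trpc4. Over the whole table edgeR called 146 genes, and the count was 1427 with DESeq2 and 2 with the title prefix as a replicate block. It ran from 3 to 471 when 1 library was left out, with 3 for E14.5 replicate 1 or adult replicate 3, 38 for adult replicate 1, 46 for adult replicate 2 and 471 for E14.5 replicate 2 as the library left out. In fits added after seeing the data the count was 36 leaving out the pair of adult replicate 2 and E14.5 replicate 3, 43 leaving out E14.5 replicates 1 and 3, and 0 leaving out adult replicates 2 and 3. In that last edgeR fit, 842 genes had an unadjusted p under 0.05. All 8 members were called by edgeR under each scaling and filter tried and by DESeq2, and 6 by limma-voom. With 1 library left out, 0 to 7 were called, reaching 0 for E14.5 replicate 1 and for adult replicate 3, and 0 were called with the block. The cause was not tested. DESeq2 called 12 of the family genes, 2 of the 12 neuronal and glial markers and 2 of the 15 neighbours to which it gave an adjusted p, against 0 each by edgeR. Leaving out 1 library gave 0 to 1, 0 to 3 and 0 to 1 in the same order. Each title prefix is shared by 1 E14.5 and 1 adult library. The deviations of these pairs from their group means correlated at -0.14, -0.23 and -0.09. These deviations come from few libraries, which also differed in marker RNA of other cell types. Whether libraries are paired by prefix was not tested, and the labels do not say what the prefix marks. The forward-strand share did follow the prefix, at 1.49% and 1.54%, 1.68% and 1.69%, and 1.34% and 1.33% in E14.5 and adult libraries 1, 2 and 3. Within these pairs the log2 ratios of CPM + 0.5, E14.5 over adult, which understate low genes, were -3.35, -5.84 and -3.88 for Nrn1 and 4.87, 2.31 and 3.74 for Kcnk1. No E14.5 library correlated best with the adult library of its own prefix. Depth limits Calca and Nrn1 in E14.5 and Grik2 in adult libraries, at 1 to 5 counts each.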
